A study of Mus musculus with 12 samples.

Results

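Hmgcs1, Idi1, Fdft1, Sqle, Lss, Cyp51 and Dhcr7 are 7 enzymes of the cholesterol synthesis pathway, taken by symbol from the 21983 genes of a mouse brain RNA-seq series. All 7 were present in the count table and all 7 passed the filter on low counts. The set was labelled as synthesis and uptake genes, but each of the 7 is a synthesis enzyme and none takes up sterol, so uptake genes are given here from a separate list. The brains came from wild-type C57BL/6 mice aged 6 weeks in 3 groups: mice with experimental cerebral malaria (ECM) treated with artesunate for 4 days, untreated mice with ECM, and control mice. Each group had 4 libraries, numbered 1 to 4, made from brain RNA kept in RNAlater, extracted with Trizol and prepared with a NEBNext Ultra RNA kit. ECM is a mouse model of the brain complication of malaria, and artesunate is an antimalarial drug of the artemisinin class. The labels used here give no parasite strain and do not say whether the libraries are from separate animals, so p-values measure the spread between libraries, which may be technical.

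Cholesterol is made from acetyl-CoA through mevalonate, isoprenoid units, squalene and lanosterol. Brain cholesterol is made mostly inside the brain, because lipoprotein cholesterol does not pass the blood-brain barrier in bulk; myelin holds much of it, and astrocytes supply neurons. When sterol in the endoplasmic reticulum is low, the membrane-bound factor SREBP2 (gene Srebf2) is released from Insig proteins, cleaved and carried to the nucleus, where it binds sterol regulatory elements with the help of NF-Y and Sp1 and turns on most of the pathway.

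Promoter sequence was on hand for 5 of the 7 genes (RefSeq, build GRCm38.p6, 250 bases before to 50 bases after the start), and those of Sqle and Fdft1 are only named. The 3 promoters of genes that varied together between libraries (Hmgcs1, Idi1 and Cyp51) and that of Lss, which did not vary with them, are printed 5′ to 3′ on the gene's strand. Capitals mark matches on either strand to the sterol element letters TCACNCCAC, to the NF-Y letters CCAAT and to the Sp1 letters GGGCGG. The Hmgcs1 promoter lies at chr13:119690101-119690400 (plus strand), Idi1 at chr13:8885356-8885655 (plus), Cyp51 at chr5:4104648-4104947 (minus) and Lss at chr10:76531355-76531654 (plus).
Hmgcs1: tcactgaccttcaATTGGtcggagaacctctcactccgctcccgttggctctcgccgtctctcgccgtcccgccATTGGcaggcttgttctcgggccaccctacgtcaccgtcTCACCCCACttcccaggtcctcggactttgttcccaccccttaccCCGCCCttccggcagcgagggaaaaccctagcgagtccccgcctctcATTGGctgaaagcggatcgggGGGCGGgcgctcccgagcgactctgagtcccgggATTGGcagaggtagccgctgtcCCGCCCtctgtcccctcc
Idi1: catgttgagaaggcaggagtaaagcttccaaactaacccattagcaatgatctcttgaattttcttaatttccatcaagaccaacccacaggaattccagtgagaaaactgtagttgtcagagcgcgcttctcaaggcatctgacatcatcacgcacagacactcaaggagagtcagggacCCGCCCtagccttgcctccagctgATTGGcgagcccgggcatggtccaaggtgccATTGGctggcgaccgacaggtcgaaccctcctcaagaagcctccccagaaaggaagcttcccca
Cyp51: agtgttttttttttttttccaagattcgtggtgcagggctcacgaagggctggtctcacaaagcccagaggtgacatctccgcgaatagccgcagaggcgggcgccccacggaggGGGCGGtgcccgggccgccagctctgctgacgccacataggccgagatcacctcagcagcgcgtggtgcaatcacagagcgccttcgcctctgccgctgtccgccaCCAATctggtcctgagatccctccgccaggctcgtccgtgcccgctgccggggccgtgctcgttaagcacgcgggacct
Lss: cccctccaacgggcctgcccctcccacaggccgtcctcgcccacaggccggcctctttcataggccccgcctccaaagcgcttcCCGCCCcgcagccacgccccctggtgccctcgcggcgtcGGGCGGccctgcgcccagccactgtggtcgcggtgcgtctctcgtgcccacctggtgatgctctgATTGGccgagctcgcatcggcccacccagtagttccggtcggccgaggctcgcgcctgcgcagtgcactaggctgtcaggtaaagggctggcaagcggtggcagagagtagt

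The letters TCACNCCAC stood in 1 of the 5 promoters, that of Hmgcs1, 137 bases before the start, against 1.22% of 27025 mouse promoters of the same length and 0 of 11 promoters of other cholesterol synthesis enzymes. CCAAT stood in 4 of the 5, all except Dhcr7, against 37.9% of all promoters and 10 of the 11. GGGCGG stood in 5 of 5, against 36.0% of all promoters and 10 of the 11. These matches describe the letters in this window and are not measured binding sites.

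Reads assigned to genes ranged from 13342177 to 18886822 per library. Levels are in CPM (reads of a gene relative to the TMM-scaled library total), with group means ± SD of 4 libraries. Changes are log2 fold changes ± SE from edgeR's quasi-likelihood test, with Benjamini-Hochberg adjustment over the 14598 genes tested. Called genes are those with an adjusted p under 0.05. In ECM against control 7.05% of all genes were called higher and 3.21% lower, in treated ECM against ECM 3.27% higher and 5.12% lower, and in treated ECM against control 1.97% higher and 0.0548% lower. Groups did not overlap for 14.3%, 21.9% and 19.1% of all genes in these comparisons. Control 4, ECM 2 and ECM 3 stood apart from the other libraries, with 10.7%, 15.2% and 13.2% of reads from mitochondrial genes against 4.74% to 7.89% in the others. In these 3 libraries the deviation of a gene from its mean level fell with its GC content (rank correlation over 13742 genes of -0.67, -0.32 and -0.48), while that correlation was -0.05 to 0.55 in the other libraries. Cerebellum markers differed within groups, with a mean level of 1.80 to 7.47 log2 CPM over the ECM libraries.

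Of the 7 genes, Fdft1 was called in ECM against control, and the call lay close to the threshold. It was 1.46-fold higher in ECM brains, with all 4 libraries above every control library, and the call was lost under 13 of 21 alternatives. Without control 4, ECM 2 and ECM 3 together, the gene called was Lss in place of Fdft1. The Fdft1 level stood at 85.3 ± 13.4 CPM in treated ECM brains, against 120 ± 21.6 CPM in ECM brains and 82.3 ± 2.46 CPM in control brains (SD, n = 4 each). With all 12 libraries the other 6 genes did not pass the test in any of the 3 comparisons, and their log2 fold changes lay between -0.40 and 0.22.

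**Figure D1:**
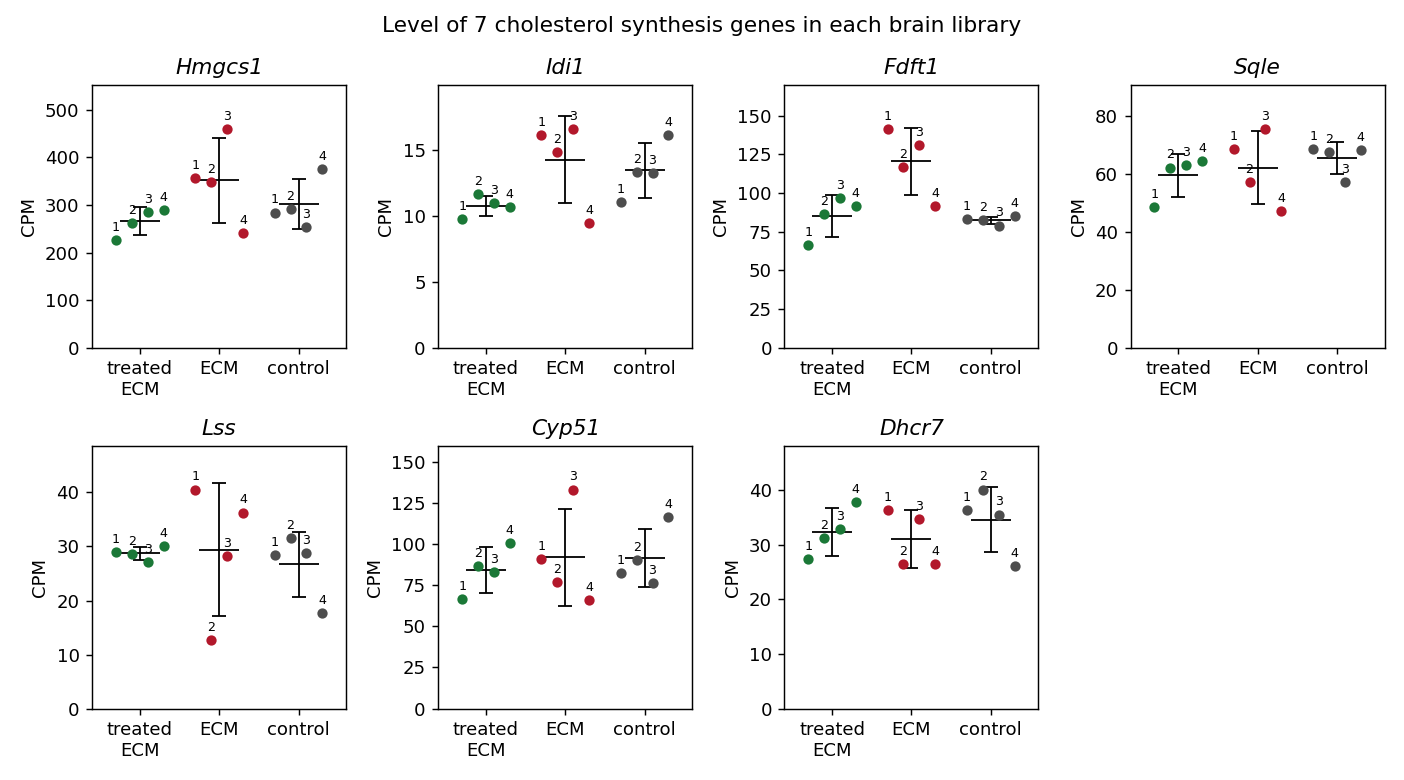
Level (CPM) of each of the 7 genes in the 4 libraries of treated ECM, ECM and control brains, with library numbers beside the points, horizontal bars for the mean and whiskers for the SD. ECM 3 holds the highest Hmgcs1 (460 CPM), Idi1, Sqle and Cyp51 level of all 12 libraries, ECM 4 lies at 242 CPM of Hmgcs1, and only for Fdft1 do all ECM points lie above all control points.

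Hmgcs1 encodes the cytosolic HMG-CoA synthase, an early enzyme of the pathway that makes HMG-CoA from acetoacetyl-CoA and acetyl-CoA. It had 227, 262, 286 and 289 CPM in treated ECM brains, 356, 349, 460 and 242 CPM in ECM brains, and 284, 292, 254 and 376 CPM in control brains (libraries 1 to 4). The 3 groups overlapped: ECM 3 was the highest library, and ECM 4 lay below every control library. The ECM against control change was 0.22 ± 0.19 (adjusted p = 0.562), and that of treated ECM against ECM was -0.40 ± 0.19, a ratio of 0.757 with a 95% interval of 0.567 to 1.01 (adjusted p = 0.208). With 1 library left out, the ECM against control change ran from 0.081 without ECM 3 to 0.37 without ECM 4, and that of treated ECM against ECM from -0.25 without ECM 3 to -0.55 without ECM 4, none of them called. At 88.4 RPKM on average (CPM per kilobase of the longest protein-coding transcript), Hmgcs1 was the most abundant of the 7 per length and lay at the 96.1th percentile of all tested genes.

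Idi1 encodes the isomerase that interconverts the pair of 5-carbon isoprenoid building blocks. It had 9.79, 11.6, 10.97 and 10.7 CPM in treated ECM brains, 16.1, 14.8, 16.6 and 9.48 CPM in ECM brains, and 11.04, 13.4, 13.2 and 16.1 CPM in control brains. ECM 4 was the lowest of all 12 libraries, the other ECM libraries lay above all treated ECM libraries, and ECM and control overlapped. The change was 0.08 ± 0.20 in ECM against control (adjusted p = 0.859) and -0.40 ± 0.20 in treated ECM against ECM (adjusted p = 0.219). The ECM against control change was 0.24 without ECM 4 and 0.20 without control 4, and 0.017 without ECM 3. Idi1 was the least abundant of the 7 per length (4.24 RPKM).

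Fdft1 encodes squalene synthase, which joins farnesyl units and commits them to sterols. It had 66.2, 86.4, 96.6 and 91.9 CPM in treated ECM brains, 142, 117, 131 and 91.8 CPM in ECM brains, and 83.1, 82.3, 79.0 and 84.9 CPM in control brains. ECM and control did not overlap, and the controls lay between 79.0 and 84.9 CPM. Treated ECM overlapped with ECM, since treated ECM 3 and 4 lay just above ECM 4. Treated ECM overlapped with control only through treated ECM 1, which lay below every control library at 66.2 CPM. The other treated ECM libraries lay above every control library. The ECM against control change was 0.55 ± 0.16, a 1.46-fold higher level with a 95% interval of 1.15 to 1.86 (adjusted p = 0.0455). Treated ECM against ECM gave -0.50 ± 0.16 (ratio 0.708, 0.558 to 0.900), with an adjusted p of 0.0714 by edgeR. Treated ECM against control gave 0.05 ± 0.16 (adjusted p = 0.896).

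The Fdft1 value in ECM against control stayed between 0.47 and 0.66 when any 1 library was left out, but the adjusted p was above 0.05 in 9 of the 12 omissions, reaching 0.135 without ECM 1. It remained below 0.05 only without treated ECM 1 (0.0404), ECM 2 (0.0480) or ECM 4 (0.0149). Without control 4, ECM 2 and ECM 3 together the change was 0.51 (adjusted p = 0.0798). Treated ECM against ECM passed the test when ECM 4 was left out (-0.61, adjusted p = 0.0234).

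Sqle encodes squalene epoxidase, the first oxygen-requiring step and a second control point of the pathway. It had 48.6, 62.2, 63.2 and 64.3 CPM in treated ECM brains, 68.7, 57.2, 75.6 and 47.2 CPM in ECM brains, and 68.7, 67.5, 57.1 and 68.4 CPM in control brains. ECM libraries spanned the range of both other groups. The change was -0.07 ± 0.16 in ECM against control (ratio 0.950, 0.743 to 1.21), -0.06 ± 0.16 in treated ECM against ECM and -0.14 ± 0.16 in treated ECM against control (adjusted p of 0.848, 0.848 and 0.709).

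Lss encodes lanosterol synthase, which closes the sterol ring system. It had 29.1, 28.6, 27.2 and 30.1 CPM in treated ECM brains, 40.5, 12.7, 28.3 and 36.3 CPM in ECM brains, and 28.5, 31.6, 28.8 and 17.8 CPM in control brains. ECM 2 and control 4, both among the libraries that stand apart, were the lowest, and treated ECM brains varied least (SD 1.20 CPM, against 12.3 CPM in ECM). The change was 0.14 ± 0.29 in ECM against control and -0.04 ± 0.29 in treated ECM against ECM (adjusted p of 0.831 and 0.950). Without control 4, ECM 2 and ECM 3 together both passed the test, with 0.37 ± 0.10 in ECM against control (adjusted p = 0.0304) and -0.42 ± 0.10 in treated ECM against ECM (adjusted p = 0.0175), from 2 ECM libraries.

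Cyp51 encodes lanosterol 14-alpha-demethylase, the cytochrome P450 of the pathway. It had 66.7, 87.0, 83.0 and 100.9 CPM in treated ECM brains, 91.1, 77.1, 133 and 66.3 CPM in ECM brains, and 82.4, 90.5, 76.2 and 117 CPM in control brains. ECM 3 and control 4 were the highest, and the group means differed by less than the SD within any group (84.4 ± 14.1, 91.9 ± 29.3 and 91.4 ± 17.8 CPM in treated ECM, ECM and control). The change was 0.01 ± 0.22 in ECM against control and -0.12 ± 0.22 in treated ECM against ECM (adjusted p of 0.988 and 0.754).

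Dhcr7 encodes the reductase that makes cholesterol from 7-dehydrocholesterol. It had 27.3, 31.2, 32.8 and 37.8 CPM in treated ECM brains, 36.3, 26.4, 34.7 and 26.4 CPM in ECM brains, and 36.3, 40.1, 35.5 and 26.1 CPM in control brains. All 3 groups overlapped. The change was -0.16 ± 0.18 in ECM against control (ratio 0.897, 0.688 to 1.17), 0.06 ± 0.18 in treated ECM against ECM and -0.10 ± 0.18 in treated ECM against control (adjusted p of 0.671, 0.860 and 0.810). With 1 library left out the ECM against control change ran from -0.26 to -0.077.

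**Figure D2:**
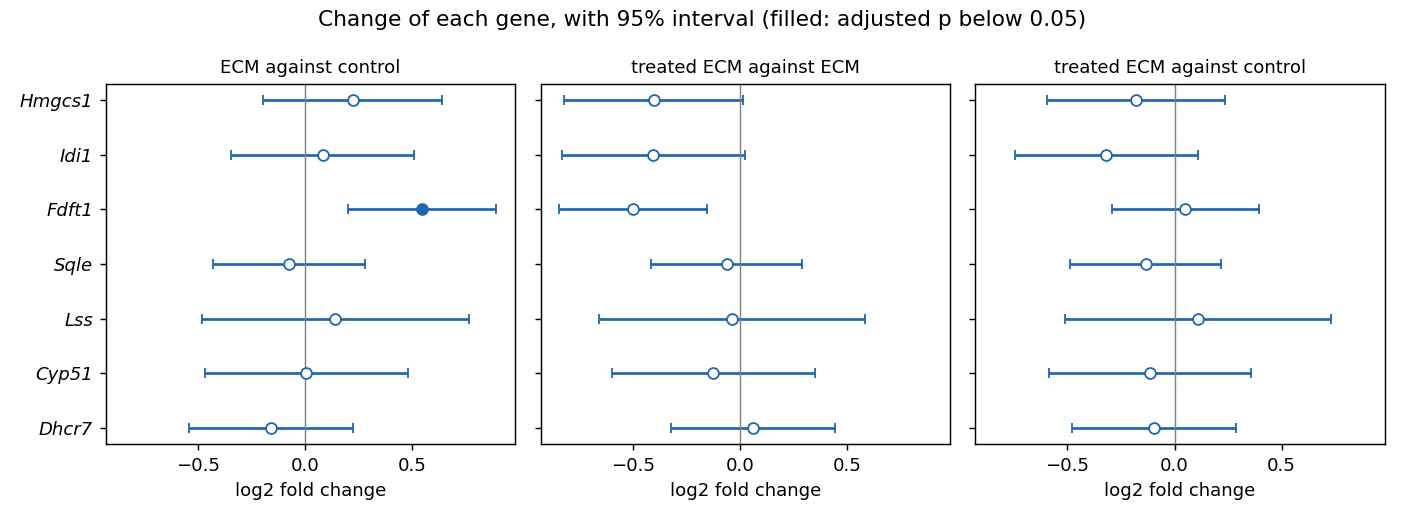
Log2 fold change of each gene in the 3 comparisons (points, filled where called) with 95% intervals (bars). Fdft1 in ECM against control, at 0.55, is the only filled point, and 6 of the 7 points lie below 0 in treated ECM against ECM.

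A single call among 7 genes is read against the share of all genes called. In ECM against control 1 of 7 was called higher (7.05% of all genes), 0 lower (3.21%), and 5 had a positive change, with a median of 0.08 against -0.02 over all genes. Of the 7, edgeR called 0 in treated ECM against ECM (1 of 7 at an unadjusted p under 0.05, and 1 of 7 by DESeq2), 6 had a negative change, and the median was -0.12 against 0.01 over all genes. Neither edgeR nor DESeq2 called any in treated ECM against control (0 of 7), 0 had an unadjusted p under 0.05, and the median was -0.12 against 0.00 over all genes. The ECM libraries enter both of the first comparisons and the treated and control libraries the third, so the 3 sets of values are not independent. Groups failed to overlap for 1 of 7 genes in ECM against control and for 0 of 7 in both other comparisons. The summed level of the 7 genes was 567 ± 65.7 CPM in treated ECM, 701 ± 152 CPM in ECM and 615 ± 67.6 CPM in control brains. In bulk brain RNA, fewer cells of a type and less RNA per cell cannot be told apart.

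The intervals limit what these libraries can show. Over the 7 genes the 95% intervals of the ECM against control log2 change reached from -0.54 to 0.89, and those of treated ECM against control from -0.75 to 0.73. A gene that did not pass the test is therefore not shown to be unchanged.

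Per length, the order of the levels over all 12 libraries was Hmgcs1 (88.4 RPKM), Fdft1 (26.0), Cyp51 (22.7), Sqle (22.6), Dhcr7 (11.6), Lss (6.06) and Idi1 (4.24). Fdft1, Cyp51 and Sqle follow each other in that order and their spreads overlapped, with 32.6 ± 5.83, 23.4 ± 7.47 and 22.5 ± 4.56 RPKM in ECM brains. Dhcr7 (10.99 ± 1.88 RPKM in ECM brains) lay clear of Sqle above it, while Lss (6.31 ± 2.63) and Idi1 (4.71 ± 1.08) overlapped there.

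Most pairs of the 7 genes varied together from library to library. Over the 12 libraries, after subtraction of group means, the 21 pairs had a median Pearson r of 0.59 (-0.35 to 0.93) on log2 CPM. Hmgcs1 with Cyp51 had the highest value (0.93), then Sqle with Fdft1 (0.91), Hmgcs1 with Sqle (0.87) and Sqle with Cyp51 (0.86). Lss stood apart, with a median of -0.06 over its 6 pairs, an r of -0.35 with Hmgcs1 and of 0.58 with Dhcr7. These values are descriptions, since the libraries share their depth, scaling and GC dependence.

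The same libraries were low or high for most genes. Treated ECM 1 was the lowest of its group for 6 of the 7 genes, all except Lss, and its summed level was 475 CPM against 569 to 625 CPM in the other treated ECM libraries. ECM 4 was the lowest of its group for the same 6 genes (519 CPM, against 654 to 880 CPM in the other ECM libraries). ECM 3 was the highest of its group for 4 genes and control 4 for 4 genes. Gene level fell with GC content in both of these libraries, and also in ECM 2, which was the highest of its group for 0 genes. Treated ECM 4 was the highest of its group for 5 genes.

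**Figure D3:**
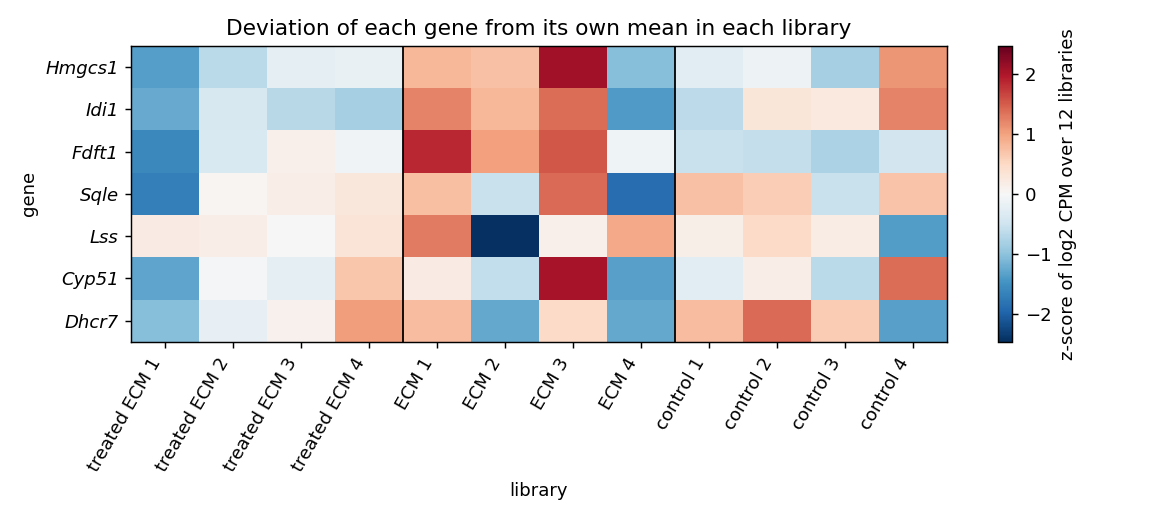
Deviation of each gene (rows, in pathway order) from its own mean over the 12 libraries, as a z-score of log2 CPM, in treated ECM, ECM and control libraries (columns). Treated ECM 1 and ECM 4 are low and ECM 3 is high in most rows. The Lss row is high in ECM 4, unlike the others, and the Lss and Dhcr7 rows are both low in ECM 2 and control 4.

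The transcript GC content of the 7 genes ran from 41.9% for Idi1 and 43.1% for Hmgcs1, at the 10.03th and 14.5th percentile of all tested genes, through 46.2% for Cyp51 and 49.3% for Sqle, to 51.8% for Fdft1, 52.2% for Lss and 52.8% for Dhcr7. Control 4, the library with the strongest fall of level with GC content, had the highest Hmgcs1, Idi1, Cyp51 and Fdft1 levels of the controls and the lowest Lss and Dhcr7 levels. ECM 4, the library with the strongest rise with GC content, had the lowest level of the ECM group for 6 of the 7 genes. Among them were Hmgcs1 and Idi1 with a low GC content, and Fdft1 and Dhcr7 nearer the middle (57.8th and 62.7th percentile). With a GC-content correction, chosen after the data were seen, Fdft1 remained called in ECM against control (0.56, adjusted p = 0.0279) and passed the test in treated ECM against ECM (-0.58, adjusted p = 0.0267). For Hmgcs1 that correction turned the treated ECM against control value to 0.07, against -0.18 without it. The part of GC dependence in the differences between single libraries was not tested.

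**Figure D4:**
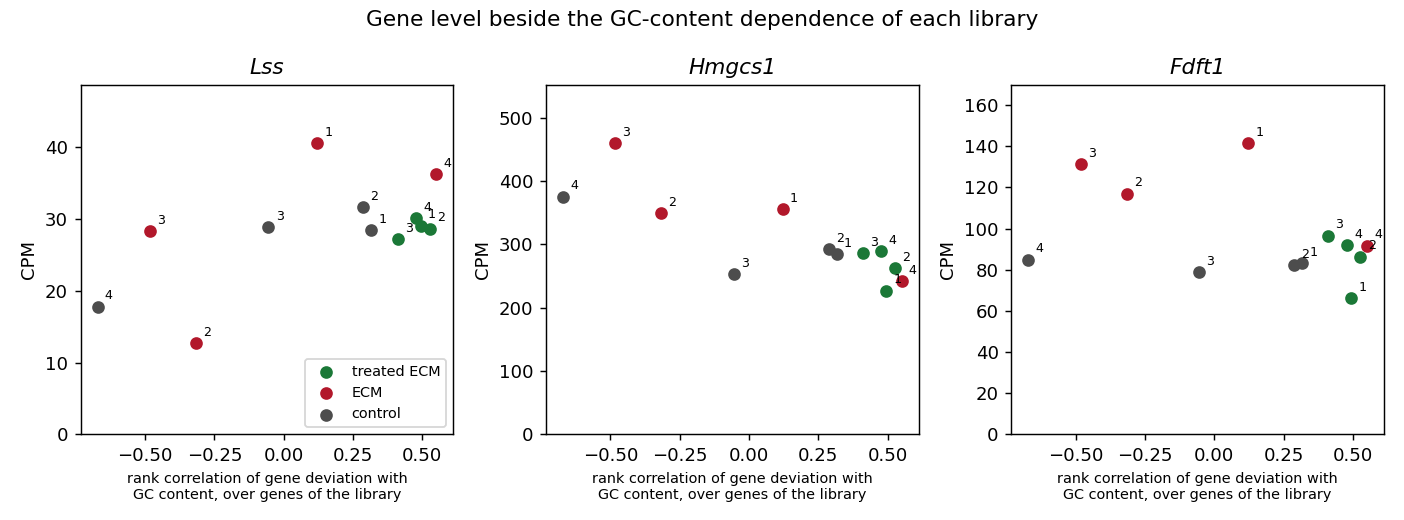
Level (CPM) of Lss, Hmgcs1 and Fdft1 in each library, against the rank correlation between GC content and the deviation of each gene from its mean in that library (colours for groups, numbers for libraries). The highest Hmgcs1 levels are those of ECM 3 (at -0.48) and control 4 (at -0.67), Lss is lowest in control 4 and ECM 2, and the 4 treated ECM libraries lie together between 0.41 and 0.53.

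Markers of other cell types moved with the same comparisons. Over all genes, 7.05% were called higher and 3.21% lower in ECM against control. In treated ECM against ECM these shares were 3.27% and 5.12%. Astrocyte markers were called higher in ECM for 3 of 8, and lower in treated ECM against ECM for 3 of 8 (summed level 4935 to 5586 CPM in treated ECM, 6099 to 6937 CPM in ECM, 5311 to 6406 CPM in control brains). Endothelial markers were higher in ECM for 4 of 6 and lower for 1 (295 to 377 CPM in treated ECM, 398 to 536 CPM in ECM, 211 to 258 CPM in control brains). Of the T and NK cell markers 7 of 7 were called higher in ECM (14.1 to 39.7 CPM in treated ECM, 75.7 to 153 CPM in ECM, 0 to 0.439 CPM in control brains, where Cd3g and Cd8b1 were at 0 in all 4 libraries) and of the monocyte markers 6 of 6 (13.8 to 31.2, 108 to 280 and 1.17 to 2.26 CPM in treated ECM, ECM and control). Myelinating oligodendrocyte markers, from the cells that make myelin, were called higher for 1 and lower for 2 of 10 in ECM (8478 to 12073, 7277 to 8751 and 6820 to 12592 CPM in treated ECM, ECM and control). Of the oligodendrocyte precursor markers 1 of 6 was called, Gpr17, lower in ECM and higher in treated ECM against ECM (56.8 ± 9.51 CPM in treated ECM, 11.6 ± 6.15 CPM in ECM and 46.9 ± 7.83 CPM in control brains, SD, n = 4 each). Erythroid markers, from red cells and their precursors, were called lower in ECM for 3 of 4 and higher in treated ECM against ECM for 3 of 4. Their summed level was 13.2 to 82.6 CPM in treated ECM, 0 to 0.678 CPM in ECM, where Hbb-bt was at 0 in all 4 libraries, and 10.9 to 45.5 CPM in control brains. Choroid plexus markers lay lower in ECM for 5 of 5, of which 1 was called, Enpp2, with 301 to 1368, 197 to 638 and 369 to 1117 CPM in treated ECM, ECM and control. Of the microglia markers 1 of 6 was called higher in ECM, and of the neuron markers 0 of 8 and of the cerebellum markers 0 of 9 were called in any comparison by edgeR (at most 1 and 0 of them at an unadjusted p under 0.05). The part of cell composition in the Fdft1 change was not tested. With the myelinating oligodendrocyte score as a covariate the change was 0.55 (adjusted p = 0.0494), and with the cerebellum score 0.47 (adjusted p = 0.0403). No astrocyte, endothelial, T and NK cell or monocyte score was used as a covariate, so these fits do not bear on those cells.

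The other enzymes of cholesterol synthesis gave 1 call. Of 14 listed, 13 were tested, and 1 was called higher in ECM against control, Lbr, with a median log2 change of 0.12 over the 13. That count stands beside 7.05% of all genes called higher in this comparison. Lbr, the lamin B receptor with sterol C14-reductase activity, had 18.2, 17.9, 17.4 and 18.6 CPM in treated ECM brains, 19.6, 33.8, 14.4 and 24.04 CPM in ECM brains, and 13.2, 14.9, 14.8 and 11.1 CPM in control brains. ECM 3 lay within the control range, and the change was 0.77 ± 0.23 (adjusted p = 0.0457). That call was lost under 14 of 21 alternatives, 11 of them omissions of 1 library. Hsd17b7, a sterol 3-keto-reductase, had 0.42 ± 0.19 in ECM against control (adjusted p = 0.205), Pmvk, the phosphomevalonate kinase, 0.26 ± 0.18 (0.439) and Mvd, the mevalonate diphosphate decarboxylase, -0.27 ± 0.30 (0.658). Fdps, the farnesyl diphosphate synthase, had 0 to 4 reads per library and was not tested; near-identical copies can split its reads, and the cause was not tested. Of the 13, edgeR called 0 in treated ECM against ECM (3 at an unadjusted p under 0.05) and 0 in treated ECM against control (1 at an unadjusted p under 0.05).

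Of the genes for sterol uptake and export from endosomes, 0 of 12 were called in any comparison by edgeR (1 at an unadjusted p under 0.05 in ECM against control, 0 in treated ECM against ECM and 2 in treated ECM against control), and the median was -0.16 in ECM against control. In ECM against control Vldlr, a receptor for apoE-rich particles and reelin, had -0.48 ± 0.16 (adjusted p = 0.0757). Npc2, which hands cholesterol on in lysosomes, had 0.46 ± 0.22 there (adjusted p = 0.235). Alternatives gave a call for Vldlr in 4 of 21 and for Npc2 in 2 of 21.

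Among 10 genes that control SREBP, 1 was called higher in ECM against control, Insig1, beside 7.05% of all genes. The list leaned the other way: 7 of the 10 had a negative change there, with a median of -0.22 against -0.02 over all genes. Insig1, the endoplasmic reticulum anchor that retains SREBP and is itself an SREBP target, had 73.0, 78.8, 72.2 and 86.2 CPM in treated ECM brains, 108, 119, 94.8 and 96.7 CPM in ECM brains, and 83.8, 80.0, 71.0 and 70.4 CPM in control brains. All ECM libraries lay above all others, while treated ECM and control overlapped. The change was 0.45 ± 0.13 in ECM against control (adjusted p = 0.0410), -0.43 ± 0.13 in treated ECM against ECM (adjusted p = 0.0571) and 0.02 ± 0.13 in treated ECM against control (adjusted p = 0.945). The first call was lost in 12 of 21 alternatives, 9 of them omissions of 1 library. The Insig1 change in treated ECM against ECM passed the test in 7 of 21. Srebf2 itself had 230, 242, 254 and 235 CPM in treated ECM brains, 196, 77.4, 124 and 172 CPM in ECM brains, and 237, 230, 205 and 109 CPM in control brains. Its level was lowest in ECM 2 and control 4, and all treated ECM libraries lay above all ECM libraries. Its change was -0.46 ± 0.28 in ECM against control (adjusted p = 0.377) and 0.76 ± 0.28 in treated ECM against ECM (adjusted p = 0.108). With 1 library left out, the ECM against control change ran from -0.64 without control 4 to -0.24 without ECM 2. Treated ECM against ECM passed the test without control 4 (0.75, adjusted p = 0.0456) and without control 4, ECM 2 and ECM 3 together (0.38, adjusted p = 0.0276). Erlin1 (-0.30 ± 0.16, adjusted p = 0.293) and Insig2 (-0.28 ± 0.15, adjusted p = 0.302) in ECM against control did not pass the test. Alternatives gave a call for Erlin1 in 1 of 21 and for Insig2 in 2 of 21.

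Larger changes were those of Apod and Ch25h, from the lists of genes that move or modify sterols. Over all genes, 7.05% were called higher in ECM against control, 5.12% lower in treated ECM against ECM and 1.97% higher in treated ECM against control. Of 9 genes for efflux, LXR and esterification, 1 was called, Apod, a lipocalin that carries small lipids. It had 269, 212, 247 and 316 CPM in treated ECM brains, 760, 1452, 755 and 801 CPM in ECM brains, and 195, 257, 239 and 296 CPM in control brains. Every ECM library lay above all others, by 1.93 ± 0.23 against control (adjusted p = 9.52e-05), and treated ECM fell against ECM, with a change of -1.85 ± 0.23 (adjusted p = 0.000784). Treated ECM against control was 0.08 ± 0.23. Of 4 oxysterol enzymes, Ch25h, which makes 25-hydroxycholesterol, was called. It had 6.24, 8.76, 8.31 and 9.73 CPM in treated ECM brains, 8.82, 24.1, 7.58 and 15.5 CPM in ECM brains, and 0.533, 0.251, 0.659 and 0.0686 CPM in control brains, from 1 to 10 reads per control library. It was higher in ECM by 5.18 ± 0.52 (adjusted p = 1.78e-05) and in treated ECM by 4.41 ± 0.51 (adjusted p = 0.000198) against control, and treated ECM against ECM was -0.76 ± 0.40 (adjusted p = 0.242). The Apod and Ch25h calls held under all 21 alternatives.

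The remaining named genes of these lists did not pass the test in ECM against control. Under alternatives Soat1 passed it in 1 of 21 and Cyp7b1 in 2 of 21. The efflux list gave -0.45 ± 0.49 for Nr1h2 (LXR beta), -0.31 ± 0.30 for the transporter Abcg4 and -0.31 ± 0.15 for Soat1, which esterifies cholesterol (adjusted p of 0.659, 0.611 and 0.242). The oxysterol list gave 0.50 ± 0.19 for the hydroxylase Cyp7b1, -0.10 ± 0.29 for Cyp27a1 and 0.06 ± 0.26 for Cyp46a1, the neuronal enzyme through which the brain exports cholesterol (adjusted p of 0.129, 0.881 and 0.931). Of 10 genes in the fatty acid branch of SREBP, 1 was called lower in ECM, beside 3.21% of all genes. This was Elovl6, a fatty acid elongase. It had 80.9, 76.8, 78.3 and 80.4 CPM in treated ECM brains, 59.2, 60.6, 68.2 and 49.6 CPM in ECM brains, and 87.3, 97.9, 94.0 and 124 CPM in control brains. All 3 groups were separate, with treated ECM between the others. The change was -0.76 ± 0.14 in ECM against control (adjusted p = 0.00341), and 0.41 ± 0.14 in treated ECM against ECM (adjusted p = 0.0923). Treated ECM against control gave -0.35 ± 0.14 (adjusted p = 0.389) and was called under 0 of 21 alternatives. Groups did not overlap in that comparison for 19.1% of all genes. The desaturases Fads2, Scd2 and Scd1 had -0.59 ± 0.32, -0.34 ± 0.18 and -0.26 ± 0.15 in ECM against control (adjusted p of 0.302, 0.303 and 0.362). The Fads2 change ran from -0.82 without ECM 3 to -0.30 without ECM 2, and it passed the test with the cerebellum score as a covariate (-0.93, adjusted p = 0.0165).

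**Figure D5:**
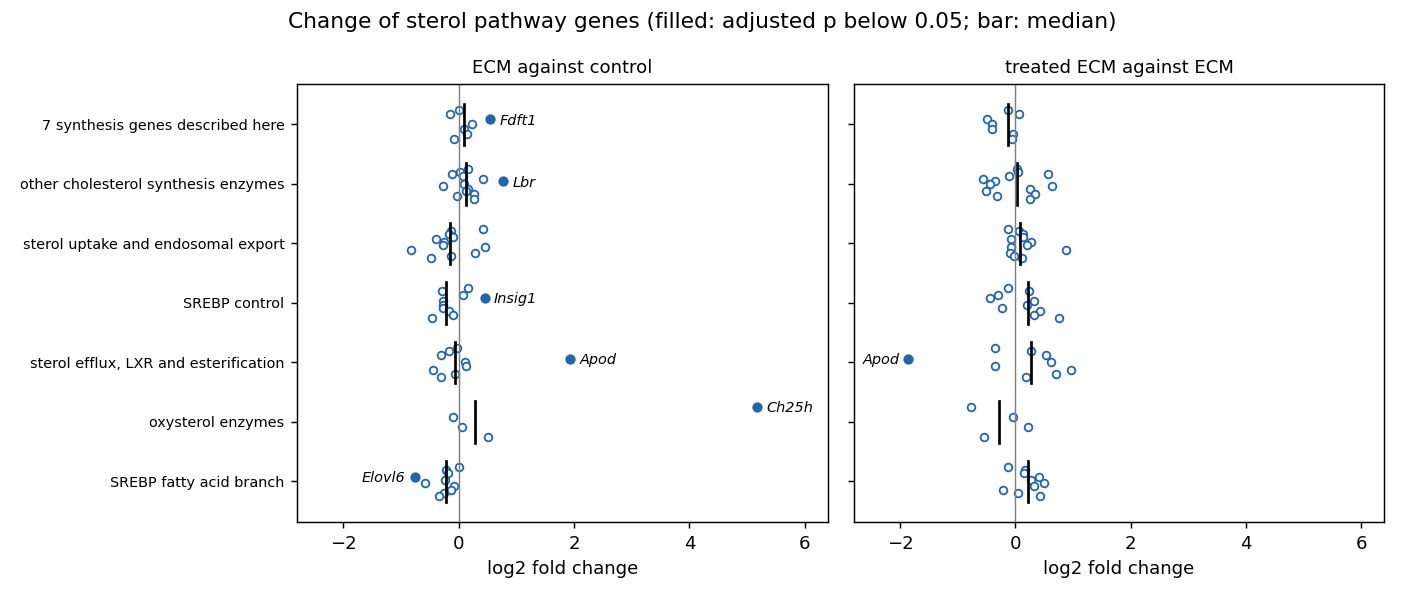
Log2 fold change of the 7 genes and of the genes in 6 sterol pathway lists (rows) in ECM against control and in treated ECM against ECM, with filled points for called genes and a bar for the median of each list. Ch25h at 5.18 and Apod at 1.93 are the points farthest right in ECM against control, and Apod at -1.85 is the only filled point in treated ECM against ECM.

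Over the 12 libraries, the genes outside the set whose log2 CPM was most like the mean z-score of the 7 were Sfmbt2 (Pearson r 0.93), Dzank1 (0.90), Smim17 (0.90), Tirap (0.89), Kcnk9 (0.88) and Fstl1 (0.87). This ranking left out predicted gene models, clone-named genes, mitochondrially encoded genes and genes whose deposited counts were displaced. Of the pathway lists the closest were Msmo1 (0.76), Hsd17b7 (0.75), and Nsdhl (0.72), each with at least 64 ranked genes above it. Insig1 had 0.28.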

How the data were processed

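RNA-seq was run on 12 mouse brain libraries, 4 per group. Per the submitters' processing notes, Trimmomatic, FastQC, STAR and HTSeq were used with build mm10; their order, version and strand setting are not stated there. The table as deposited holds a whole read count for each gene and library. The authors' deposited tables of 3 comparisons give a log2 fold change, a p-value, a normalized signal and an FPKM for each gene listed; none lists any of the 7 genes, and they were used only to check counts and lengths.

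In 2212 genes with names of 8 or more characters the deposited counts were displaced and were put back. For these, treated ECM 4 differed from the authors' tables in 98 of 107 genes and was left out of their fit (11 libraries); 0 of the 7 genes were affected. Dropped were 26 rows whose names had the form of a date or number, were repeated or were empty. After TMM scaling and the filterByExpr filter, 1 quasi-likelihood model with 1 mean for each of the 3 groups was fitted (edgeR 4.0.16, limma 3.58.1, R 4.3.3). Log2 CPM used a prior count of 2. RPKM divides CPM by the longest protein-coding transcript (GENCODE M21), which came within 1% of the length behind the authors' deposited FPKM for 62.3% of 656 genes. Scripts were tested on simulated counts. Depth limits counting precision (at least 162 reads per library for each of the 7 genes), and p-values cover the spread between libraries.

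The 7 genes, 6 pathway lists and 11 cell type marker lists were chosen with earlier results of these data known. Named are the 7 genes, up to 4 genes per pathway list (first those called most often, then those with the largest ECM change; Srebf2 and Insig1 always; some genes this rule names are not reported here) and the 6 genes most like the set. Alternatives were another scaling, no filter, DESeq2 1.42.0, 2 groups only, a replicate block, covariates and omitted libraries. The libraries omitted together (control 4, ECM 2 and ECM 3) are those that stood apart in these same data. A further alternative, a GC-content correction, was chosen after seeing the data. Tables and figures were made with pandas 2.3.3, matplotlib 3.10.9 and numpy 2.4.6 in Python 3.11.15.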

Additional observations from a re-analysis of the deposited data

Results flagged for a closer look

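In the 21 sets of 4 libraries that the 7 genes and 3 groups make, the highest or lowest library was set against the others by Dixon's test of the gap over the range, which chance alone passes in about 1 in 20 sets. Sqle passed in 2 of them. In treated ECM brains, library 1 was the low value at 48.6 CPM, with the other 3 between 62.2 and 64.3 CPM. Library 1 was also the lowest of its group for 5 other genes of the set, and the cause was not tested. In control brains, library 3 was the low value at 57.1 CPM, with the other 3 between 67.5 and 68.7 CPM.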

How the results depend on the processing

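Of 441 values of the 7 genes under 21 alternatives, 389 kept their direction and their side of the threshold, 13 lost a call, 5 gained one and 34 changed sign, all of these between values that were not called. Genes called in ECM against control (1498, 68.7% of them higher) were 865 with the 2 groups only (82.5% higher), 2772 without control 4, ECM 2 and ECM 3 (54.3%), 2725 with the cerebellum covariate (55.7%) and 2378 with the GC-content correction. In treated ECM against ECM (1225) they were 2271 without these 3 libraries, 2149 with DESeq2 and 2194 with the GC-content correction, and 550 to 2106 with 1 library left out. In treated ECM against control (296) they were 467 without the 3 libraries and 455 with DESeq2. The single member called in ECM against control, Fdft1, became 0 with no filter and with the 2 groups only, and was 0 to 1 over omissions of 1 library; without the 3 libraries the 1 called gene was Lss, not Fdft1. In treated ECM against ECM the 0 members called became 1 without the 3 libraries (Lss), with DESeq2 and with the GC-content correction (Fdft1), and were 0 to 1 over omissions of 1 library.

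The labels state no pairing of libraries by replicate number. After subtraction of group means, same-numbered libraries of different groups correlated from -0.61 to 0.30. Differently numbered libraries were not compared, so these values cannot decide whether the numbers pair the libraries. With the number as a replicate block, 995 genes were called in ECM against control (78.2% higher) and 546 in treated ECM against ECM, 0 members were called (Fdft1 0.54, adjusted p = 0.129), and Lss in treated ECM against ECM was 0.011.

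Sign changes in ECM against control, on the log2 scale, were Idi1 -0.0012, Cyp51 -0.147 and Cyp27a1 0.099 with the cerebellum covariate; Cyp51 -0.035 and Cyp27a1 0.067 with the myelin covariate; Cyp51 -0.081 without the 3 libraries; and Cyp46a1 -0.0038 with the GC-content correction. With 1 library left out the ranges were -0.169 to 0.038 for Sqle, -0.042 to 0.404 for Lss, -0.212 to 0.158 for Cyp51, -0.133 to 0.245 for Cyp46a1 and -0.335 to 0.082 for Cyp27a1.

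For treated ECM against ECM the cerebellum covariate gave Sqle 0.051, Lss 0.034 and Cyp51 0.077, the myelin covariate Dhcr7 -0.077, the omission of the 3 libraries Sqle 0.040 and Cyp51 0.0996, and the GC-content correction Cyp51 0.0072 and Dhcr7 -0.054. With 1 library left out the ranges were -0.173 to 0.040 for Sqle, -0.292 to 0.149 for Lss, -0.252 to 0.104 for Cyp51 and -0.024 to 0.138 for Dhcr7.

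For treated ECM against control the GC-content correction gave Hmgcs1 0.073, Fdft1 -0.020 and Cyp51 0.052, the omission of the 3 libraries Lss -0.049, Cyp51 0.019 and Insig1 -0.020, and the myelin covariate Insig1 -0.012. With 1 library left out the ranges were -0.015 to 0.155 for Fdft1, -0.041 to 0.199 for Lss, -0.213 to 0.028 for Cyp51, -0.032 to 0.071 for Insig1 and -0.023 to 0.186 for Apod. The causes were not tested.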
